A study of Mus musculus with 8 samples.

Results

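The 32 genes described here encode the nuclear receptors of the mouse outside the REV-ERB, ROR, FXR, PXR, CAR and PPARα genes and some others such as Hnf4a, Nr5a2 and Thra. They were taken by name from 21887 protein-coding genes. A chromatin loop was assigned to a gene when either of its anchors touched the gene body or the 5 kb on either side, the window of that gene. All 32 matched the annotation, and 16 further nuclear receptor genes, REV-ERBα among them, served for comparison.

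The libraries come from in-situ ChIA-PET on mouse liver, which ligates DNA ends that lie near each other in fixed nuclei and pulls down those attached to a chosen protein. The pull-down used anti-HA magnetic beads against a 3HA tag on REV-ERBα, a nuclear receptor of the circadian clock that represses transcription. Knock-in mice of genotype REV-ERBa3HA/3HA, which carry the tag on their own receptor and received no virus, gave 1 library at zeitgeber time (ZT) 10 and 1 at ZT22. The other mice, of genotype REV-ERBaf/fREV-ERBbf/f and taken at ZT10, received AAV8-TBG-Cre, so that both REV-ERB genes are floxed and exposed to Cre in dhIDR and WT mice alike. With it they received either AAV8-TBG-3HA-REV-ERBa-delhIDR (dhIDR, 2 libraries), a form that by its label lacks the hIDR, or AAV8-TBG-3HA-REV-ERBa-WT (WT, 2 libraries). The TBG promoter is active in hepatocytes, so the virus leaves other liver cells largely with their own untagged receptor. The remaining 2 samples of the series, made with anti-CTCF, were not analysed here.

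A nuclear receptor joins a DNA-binding domain to a ligand-binding domain, and in many of them a small lipid-soluble ligand such as a steroid, a thyroid hormone, retinoic acid or an oxysterol decides whether coactivators or corepressors are held at the bound gene. Many receptors of the non-steroid classes bind DNA as partners of a retinoid X receptor, at repeats of the hexamer AGGTCA. REV-ERBα binds a related site, usually as a monomer, and represses with the NCoR and HDAC3 corepressor complex. In liver the receptors set lipid, bile acid, glucose and drug metabolism, and several of their genes oscillate over the day.

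The value given for a gene is the number of paired-end tags (PETs) in its listed loops, 1 PET being 1 sequenced pair that joins both anchors. Every listed loop had at least 3 PETs, so a gene at 0 has no listed loop and may still have loops of 1 or 2 PETs. Listed PETs numbered 320427 at ZT10, 132709 at ZT22, 178426 and 160635 in the dhIDR libraries, and 104161 and 204018 in the WT libraries. The ZT10 knock-in library stood apart from the other 5. Its median loop spanned 40.1 kb, against 524 kb at ZT22 and 647 to 1071 kb in the AAV libraries, and loops with 2 wide anchors (700 bp or more) held 83.7% of its PETs, against 0.604% to 12.3% elsewhere. Genes that mark hepatocytes held 1561 PETs at ZT10 and 48 at ZT22. Those of endothelial cells held 132 and 31, of Kupffer cells 3 and 33 and of stellate cells 30 and 75. Those of lymphoid cells held 29 and 15 and of cholangiocytes 32 and 32. These are raw counts, and single genes carried some of the sums. At ZT10 Fgb held 930 of the hepatocyte PETs and Serpina1c 0, Sox9 held all 32 of the cholangiocyte PETs and Cd4 23 of the lymphoid ones. The part of other cell types in the values below was not tested. At Nr1d1, the gene of REV-ERBα itself, 265 PETs were listed at ZT10 and 0 to 5 in each of the other 5 libraries, which does not measure whether the floxed segment was removed. The labels do not say whether the 2 libraries of a construct are from different mice, so the p-values below cover the spread between libraries alone, which may be technical. All intervals are exact at 95% and cover counting error only.

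Promoter sequences are shown first for the genes with a promoter touched by the most ZT10 PETs. They are RefSeq promoters of build GRCm38.p6, each 250 bases before to 50 after a start site, and 29 of the 32 genes had at least 1 (47 promoters in all). The Thrb promoter chr14:17660710-17661009 and the Ppard promoter chr17:28232504-28232803 each lay under anchors of loops with 38 PETs at ZT10. The internal Rara promoter chr11:98964622-98964921 had 33, and the internal Pparg promoter chr6:115421816-115422115 and the Esr1 promoter chr10:4611739-4612038 had 16 each. At the Rara promoter the merged anchor ended at position 98964817, before the start site and before the hexamer that lies after it. All 5 are on the + strand and are printed 5′ to 3′, with the hexamer AGGTCA, on either strand, in capitals.
Thrb: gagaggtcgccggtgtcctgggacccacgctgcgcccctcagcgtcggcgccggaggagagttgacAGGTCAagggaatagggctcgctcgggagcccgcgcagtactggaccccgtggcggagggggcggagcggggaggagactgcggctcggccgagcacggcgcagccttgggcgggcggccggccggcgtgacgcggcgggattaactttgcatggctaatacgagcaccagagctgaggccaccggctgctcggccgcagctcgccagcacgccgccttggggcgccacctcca
Ppard: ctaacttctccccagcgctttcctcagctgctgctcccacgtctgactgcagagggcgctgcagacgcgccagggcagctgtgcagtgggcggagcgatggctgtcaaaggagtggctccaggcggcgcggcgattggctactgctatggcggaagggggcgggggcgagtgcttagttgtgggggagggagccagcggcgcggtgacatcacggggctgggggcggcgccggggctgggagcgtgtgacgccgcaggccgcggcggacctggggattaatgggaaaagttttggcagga
Rara: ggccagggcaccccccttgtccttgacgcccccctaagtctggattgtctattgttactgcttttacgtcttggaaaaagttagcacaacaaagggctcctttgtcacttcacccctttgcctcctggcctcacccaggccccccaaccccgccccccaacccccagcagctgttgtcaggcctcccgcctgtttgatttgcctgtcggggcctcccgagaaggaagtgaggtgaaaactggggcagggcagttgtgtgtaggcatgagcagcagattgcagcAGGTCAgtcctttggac
Pparg: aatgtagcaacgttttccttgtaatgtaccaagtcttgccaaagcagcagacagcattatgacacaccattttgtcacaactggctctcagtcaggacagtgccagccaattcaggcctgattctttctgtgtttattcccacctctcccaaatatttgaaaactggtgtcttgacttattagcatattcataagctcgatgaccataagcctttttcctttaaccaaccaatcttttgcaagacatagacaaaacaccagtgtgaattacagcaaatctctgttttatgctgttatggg
Esr1: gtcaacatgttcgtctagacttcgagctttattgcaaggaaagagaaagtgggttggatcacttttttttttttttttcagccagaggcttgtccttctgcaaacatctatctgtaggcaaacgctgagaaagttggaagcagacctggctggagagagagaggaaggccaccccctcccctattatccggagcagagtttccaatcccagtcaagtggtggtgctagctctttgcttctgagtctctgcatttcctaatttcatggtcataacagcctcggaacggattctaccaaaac
The hexamer occurs in the Thrb promoter, 184 bases before the start, and in the internal Rara promoter, 33 bases after it. The letters AGGTCA are not in the other 3 windows. Over both strands, 8 of the 47 promoters of the 32 genes held AGGTCA, against 16.3% of all 32851 promoters. The 7-base form TAGGTCA, which contains AGGTCA, was in 0 of the 47 and in 2.61% of all promoters, and TGGGTCA, which does not contain it, was in 3 of the 47 (Nr4a2, Rarb and Rxrg) and in 3.98% of all.

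Most of the liver-expressed receptors carried dense REV-ERBα loops at ZT10, and the liver-silent ones carried fewer. The 13 genes classed as liver-expressed from general knowledge of adult liver held 993 PETs at ZT10, with a median of 80.6 PETs per 100 kb of window, and 12 of the 13 had a listed loop. The 8 classed as silent in liver held 37 PETs, with a median of 6.34 per 100 kb, and 5 of the 8 had a loop. A loop of 4 PETs lay in the windows of both Nr5a1 and Nr6a1 and was counted at each, so 33 PETs were distinct. Nr6a1 alone held 22. The 11 of low, inducible or non-hepatocyte expression stood between, at 392 PETs and a median of 10.5 per 100 kb. Over all protein-coding genes the median was 2.34 per 100 kb and 52.1% had a listed loop. The liver-silent genes, of which 62.5% had one, thus lay above all genes by both measures. Pooled over each class, the liver-expressed genes had 71.1 PETs per 100 kb and the liver-silent genes 5.40, beside 28.2 over all protein-coding genes. The ratio between the classes was 13.2 (9.50 to 18.8), with the shared loop counted at both of its genes. Of the 10 receptors with the most PETs per 100 kb at ZT10, 8 were liver-expressed, the other 2 were Nr4a2 and Pparg, and none was liver-silent. The tenth of these genes had 79.9 PETs per 100 kb and the next 24.1. The remaining liver-expressed genes lay below the 28.2 pooled over all genes: Rxrb at 24.1, Nr2c1 at 21.8, Esr1 at 21.6, Nr1h2 at 20.9 and Nr2c2 at 0. Thrb alone held 315 of the 993 liver-expressed PETs. Loops with both anchors wide held 86.9% of the liver-expressed genes' PETs and 56.8% of the liver-silent genes'.

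In the other 5 libraries the classes lay much closer together. At ZT22 the pooled level was 11.5 PETs per 100 kb over liver-expressed and 10.8 over liver-silent genes, and the medians were 8.67 and 6.28. In the dhIDR libraries the pooled levels were 14.5 and 10.2 over liver-expressed genes, against 18.2 and 12.8 over liver-silent ones. In the WT libraries they were 8.24 and 11.4, against 12.5 and 22.02. The medians there were 14.8 and 10.2 over liver-expressed genes, against 16.3 and 7.05 over liver-silent ones, in dhIDR, and 5.25 and 10.5, against 11.3 and 21.2, in WT. Liver-silent genes thus had the higher pooled level in each of these 4 libraries and the higher median in all but the second dhIDR library. Fewer cells with a loop and fewer PETs per cell cannot be told apart in such bulk libraries. The classes were assigned by judgement, with earlier results of these data known, and there is 1 knock-in library per time, so the contrast is a description with no test.

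**Figure D1:**
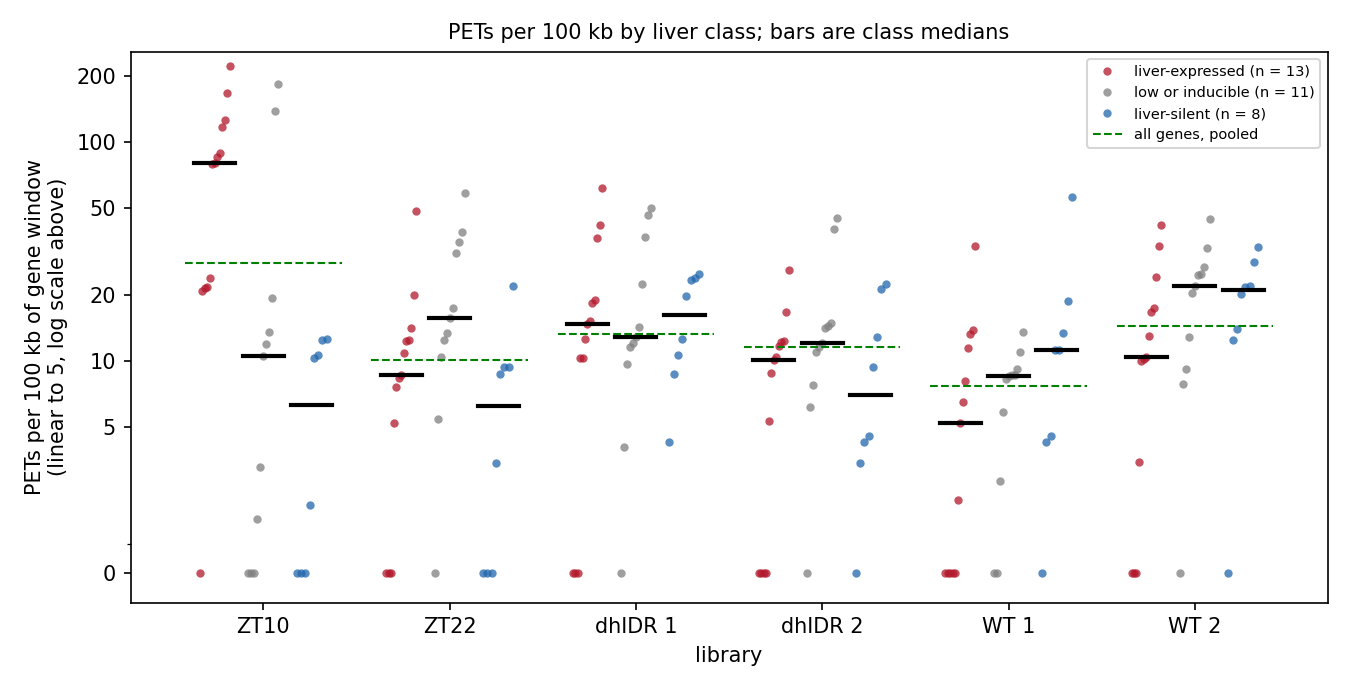
PETs per 100 kb of gene window (vertical axis, linear to 5 and log above) for the 13 liver-expressed, 11 low or inducible and 8 liver-silent receptor genes in each of the 6 libraries; each point is a gene, black bars are class medians and the green dashed line is the pooled level of all protein-coding genes. The liver-expressed median is 80.6 at ZT10 and between 5.25 and 14.8 in the other libraries.

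Outside ZT10 the PETs of a receptor gene followed the length of its window, as did those of all genes to a lesser degree. Spearman's rho between PETs and window length over the 32 genes was 0.393 at ZT10 and 0.748 at ZT22. In the dhIDR libraries it was 0.770 and 0.830, and in each WT library 0.787. Over all 21887 protein-coding genes rho was 0.393 at ZT10, 0.620 at ZT22, 0.644 and 0.629 in dhIDR, and 0.589 and 0.657 in WT. These are descriptions over genes of the same library, with no test. The 5 longest windows, those of Rarb, Esrrg, Esr1, Thrb and Nr3c2, held 37.6% of the 32 genes' PETs at ZT10, 49.5% at ZT22, 48.8% and 50.4% in dhIDR, and 52.3% and 52.8% in WT. Rarb, with the longest window of all at 661 kb, had 24 PETs at ZT10, whereas Ppard, in a window of 78.7 kb, had 176.

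**Figure D2:**
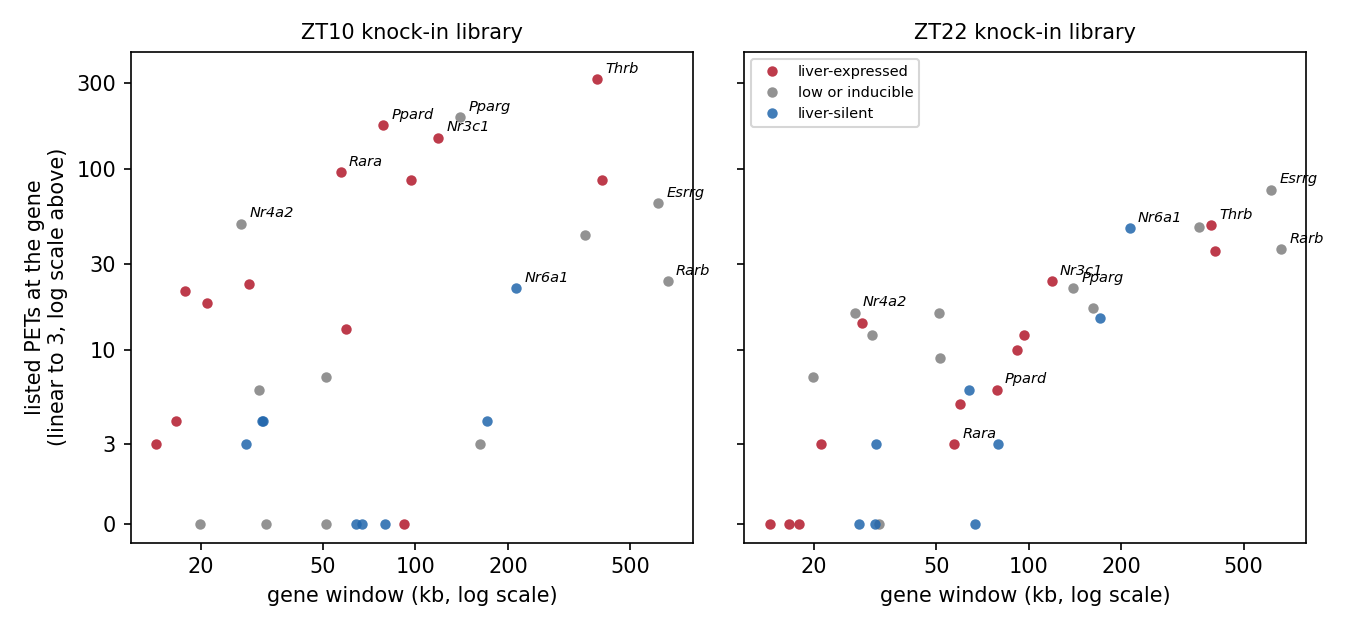
Listed PETs (vertical axis, linear to 3 and log above) against window length in kb (log axis) for the 32 receptor genes at ZT10 (left) and ZT22 (right), coloured by liver class. At ZT22 the points lie along a rising band (rho 0.748), and at ZT10 Ppard, Rara, Nr4a2 and Pparg stand above genes of longer windows (rho 0.393).

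Thrb, which encodes the main thyroid hormone receptor of hepatocytes, held the most PETs of the 32 genes. At Thrb (chromosome 14, 17659225 to 18040097) 315 PETs (281 to 352) were listed at ZT10, against 49 (36.3 to 64.8) at ZT22, and 58 and 21 in the dhIDR libraries, against 45 and 40 in the WT libraries. The knock-in library at ZT10 was the highest of the 6, and in raw PETs the dhIDR values lay on either side of both WT values. Per 100000 listed PETs Thrb had 32.5 and 13.1 in dhIDR, against 43.2 and 19.6 in WT, so the groups overlapped. All 67 of its ZT10 loops had both anchors inside the window, so none joined the gene to a neighbour. Overlapping anchors round its upstream promoter, merged over 4006 bp, took part in 21 loops with 104 PETs, of which 7 loops with 38 PETs touched the promoter sequence printed above. Both strongest loops, of 15 PETs each, lay inside the gene, from chr14:17844696-17847555 to chr14:17899930-17903851 over 55.8 kb and from chr14:17899690-17902776 to chr14:17916647-17919743 over 17.0 kb. At ZT22 the strongest Thrb loop had 4 PETs, and 8 of the 16 loops stayed within the window.

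Among the peroxisome proliferator-activated receptors, Ppard encodes a fatty acid sensor expressed in most tissues and Pparg the regulator of fat cell formation, which is low in normal liver. Ppard (chromosome 17, 28232754 to 28301469) had 176 PETs (151 to 204) at ZT10, against 6 (2.20 to 13.1) at ZT22, and 15 and 7 in dhIDR, against 11 and 3 in WT. It was high at ZT10 in the knock-in and low in all others, with dhIDR and WT overlapping. Its strongest ZT10 loop, of 35 PETs, joined the promoter anchor chr17:28231966-28237211 to an intragenic anchor chr17:28277761-28281974, 45.3 kb away. The merged anchor there took part in 19 of the 30 Ppard loops, with 139 PETs. A loop of 21 PETs ran from the same place to the neighbouring gene Def6, and 5 Ppard loops with 35 PETs in all reached Def6.

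Pparg (chromosome 6, 115360879 to 115490404) had 194 PETs (168 to 223) at ZT10, against 22 (13.8 to 33.3) at ZT22, and 20 and 17 in dhIDR, against 12 and 18 in WT. Its ZT10 level of 139 PETs per 100 kb was the second highest, after Nr4a2, among the 11 genes of low, inducible or non-hepatocyte expression. The strongest loop at any of the 32 genes was here: 70 PETs joined chr6:115461770-115466597 to chr6:115475868-115481857 over 14.7 kb, both anchors inside the gene. The upstream one of these anchors took part in 8 loops with 142 PETs, and through a loop of 16 PETs it met the internal promoter printed above. The upstream Pparg promoters lay under no ZT10 anchor.

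**Figure D3:**
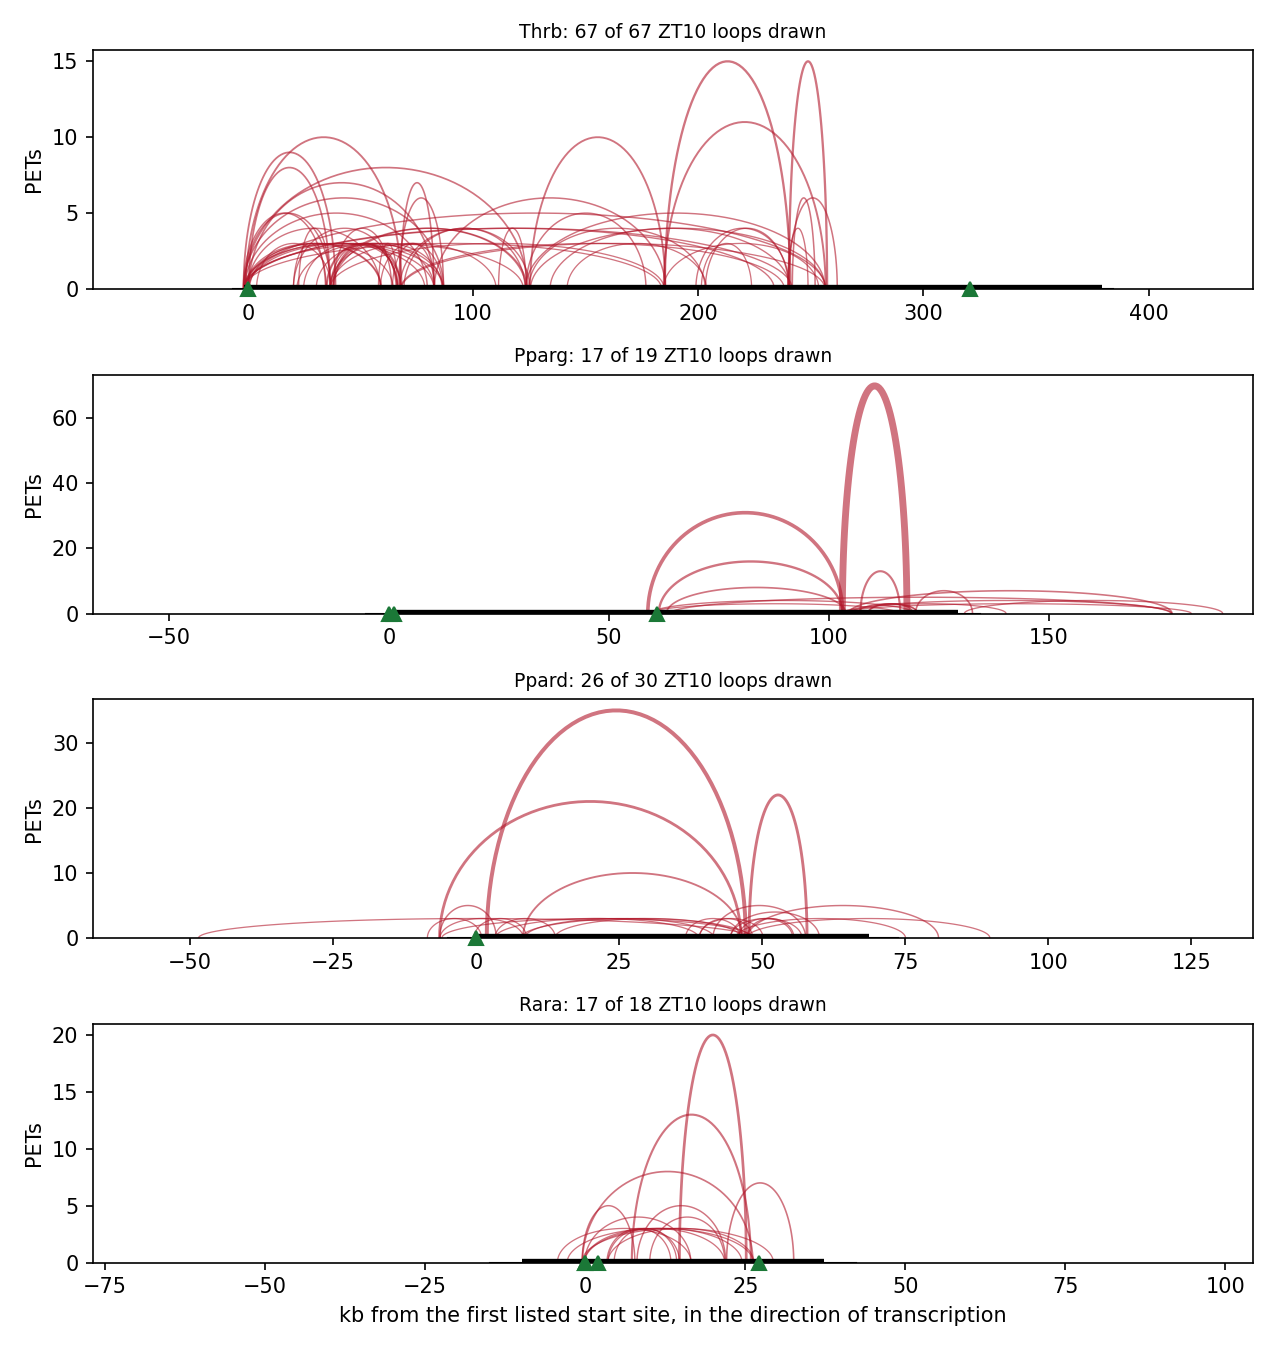
ZT10 knock-in loops at Thrb, Pparg, Ppard and Rara: the horizontal axis is the distance in kb from the first listed start site, each arc joins the midpoints of 2 anchors, its height is the loop's PETs, the black bar is the gene body and green triangles are listed start sites. Loops more than 60 kb beyond a window are left out, as the panel titles count. Thrb loops join many anchors along the gene, and at Pparg and Ppard 1 merged intragenic anchor takes part in loops with 142 of 194 and 139 of 176 PETs.

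The retinoid receptors differed among themselves. Rara encodes retinoic acid receptor α, and at Rara (chromosome 11, 98927800 to 98974942) 96 PETs (77.8 to 117) were listed at ZT10, against 3 (0.619 to 8.77) at ZT22, and 21 and 7 in dhIDR, against 3 and 6 in WT. ZT10 was far above every other library, and both dhIDR values lay above both WT values, but edgeR's filter left the gene out. Of 18 ZT10 loops 17 stayed within the window, and the strongest, of 20 PETs over 10.4 kb, touched the upstream part of the internal promoter printed above. Rarb, the β receptor, had 24 PETs at ZT10, against 36 at ZT22, and 80 and 41 in dhIDR, against 21 and 52 in WT. In raw PETs the library with fewest was a WT one, and ZT10 was below ZT22. Rarg, the γ receptor of skin, was listed at 0 in both knock-in libraries and had 12 and 0 PETs in dhIDR, against 3 and 3 in WT.

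Rxra encodes the retinoid X receptor of hepatocytes and partner of most non-steroid receptors. It had 87 PETs (69.7 to 107) at ZT10, against 12 (6.20 to 21.0) at ZT22, and 10 and 12 in dhIDR, against 0 and 0 in WT. Both dhIDR libraries thus listed loops where neither WT library did. The share of all genes with this pattern was not computed. None of the 6 dhIDR loops at Rxra exceeded 6 PETs, and 1 loop in each dhIDR library spanned more than 2 Mb. Of the 21 ZT10 loops, 15 ran to sites between genes, and the strongest, of 13 PETs, ran from chr2:27624343-27626213 to chr2:27675271-27676908, at the annotated 5′ end of the gene body, over 50.8 kb. Rxrb and Rxrg, the other retinoid X receptors, had 4 and 7 PETs at ZT10, against 0 and 16 at ZT22.

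Esr1 encodes estrogen receptor α, which liver expresses, and Esr2 estrogen receptor β, which it hardly does. Esr1 (chromosome 10, 4611989 to 5005633) had 87 PETs (69.7 to 107) at ZT10, against 35 (24.4 to 48.7) at ZT22, and 42 and 41 in dhIDR, against 33 and 53 in WT. In raw PETs ZT10 was again highest, by less than at Ppard or Rara, and dhIDR lay between both WT values. As shares of listed PETs, ZT10 and ZT22 were nearly equal at Esr1, with a log2 ratio of 0.03. Per 100000 listed PETs Esr1 had 23.5 and 25.5 in dhIDR, against 31.7 and 26.0 in WT. By that measure both dhIDR values lay below both WT values. Its 2 strongest ZT10 loops, of 20 and 12 PETs, were short, and the second joined the promoter printed above to an anchor 8.61 kb downstream. Esr2 was listed at 0 in both knock-in libraries and had 3 and 3 PETs in dhIDR, against 3 and 19 in WT.

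The estrogen-related receptors bind no known natural hormone and act on mitochondrial genes. Esrrg, the γ form of heart, kidney and brain, has the second longest window and had 65 PETs (50.2 to 82.8) at ZT10, against 77 (60.8 to 96.2) at ZT22, and 72 and 92 in dhIDR, against 51 and 127 in WT. In raw PETs the WT values enclosed the dhIDR values. Per 100000 listed PETs Esrrg had 40.4 and 57.3 in dhIDR, against 49.0 and 62.2 in WT, and the groups overlapped. Its strongest ZT10 loop had 13 PETs over 9.10 kb inside the gene. Esrra, the α form and the one most expressed in liver, had 18 PETs at ZT10 and 3 at ZT22 and was listed at 0 in all 4 AAV libraries. Its promoter was joined by 12 PETs to the neighbouring gene Bad, 28.1 kb away. Esrrb, the β form of early embryos, had 4 PETs at ZT10 and 15 at ZT22.

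Of the steroid receptors, Nr3c1 encodes the glucocorticoid receptor, abundant in liver, and Nr3c2 the mineralocorticoid receptor, known from kidney. Nr3c1 had 150 PETs (127 to 176) at ZT10, against 24 (15.4 to 35.7) at ZT22, and 15 and 20 in dhIDR, against 3 and 12 in WT. The ZT10 library was highest and both dhIDR values lay above both WT values. At ZT10 its 33 loops included 9, with 46 PETs, that ended in the neighbouring gene Arhgap26, and the 2 strongest, of 10 PETs each, spanned 65.8 kb to Arhgap26 and 25.7 kb within the window.

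Nr3c2 had 43 PETs (31.1 to 57.9) at ZT10, against 48 (35.4 to 63.6) at ZT22, and 46 and 52 in dhIDR, against 31 and 96 in WT. In raw PETs the WT values enclosed those of the other libraries, and the 2 strongest ZT10 loops had 8 PETs each, over 20.9 and 11.6 kb inside the gene. Pgr, the progesterone receptor of reproductive tissue, was listed at 0 at ZT10 and had 3 PETs at ZT22.

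The Nr4a genes encode orphan receptors that are induced within minutes by many signals. Nr4a2 had 50 PETs (37.1 to 65.9) at ZT10, against 16 (9.15 to 26.0) at ZT22, and 0 and 3 in dhIDR, against 3 and 6 in WT. Both knock-in libraries were above all AAV libraries. Its window is short, so the ZT10 level of 184 PETs per 100 kb was the second highest of the 32 genes after the 224 of Ppard. Of its 11 ZT10 loops, 6 with 33 PETs ended in Gpd2, the mitochondrial glycerol phosphate dehydrogenase gene, and the strongest of them had 15 PETs over 127 kb. Nr4a1 had 6 PETs at ZT10, against 12 at ZT22, and 7 and 14 in dhIDR, against 0 and 0 in WT. Nr4a3 had 0 at ZT10, against 9 at ZT22, and 5 and 6 in dhIDR, against 7 and 17 in WT.

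Among the oxysterol receptors, Nr1h3 (LXRα, strong in liver) had 23 PETs at ZT10 and 14 at ZT22, and Nr1h2 (LXRβ) 3 and 0. All 3 Nr1h3 loops at ZT10, with 23 PETs, ended in the neighbouring gene Madd, and the strongest, of 14 PETs over 40.6 kb, lay on 2 overlapping listed promoters. Of the orphan receptors, Nr2f6 had 21 PETs at ZT10 and 0 at ZT22, and its promoter lay under 2 ZT10 loops with 11 PETs. Nr2c1, the testicular receptor 2 gene, had 13 and 5, while Nr2c2, the gene of testicular receptor 4, was the liver-expressed gene with no ZT10 loop, listed at 0 at ZT10 and with 10 PETs at ZT22.

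The liver-silent receptors had between 0 and 22 PETs at ZT10. Nr6a1, which encodes a receptor of germ cells and embryos, had 22 PETs (13.8 to 33.3) at ZT10, against 47 (34.5 to 62.5) at ZT22, and 51 and 48 in dhIDR, against 24 and 71 in WT. In raw PETs it was lowest in the ZT10 library, which had the most listed PETs of all. Nr2e1 and Nr2e3, known from neural stem cells and photoreceptors, had 4 and 3 PETs at ZT10 and were listed at 0 at ZT22. Nr5a1, the steroidogenic factor of adrenal and gonad, had 4, in a loop that it shared with its neighbour Nr6a1, and 3 at ZT22. Vdr, the vitamin D receptor, was listed at 0 at ZT10 and had 6 PETs at ZT22. Of the genes of low expression not yet described, Hnf4g, a relative of Hnf4a known from intestine, had 3 PETs at ZT10, against 17 at ZT22, and 7 and 23 in dhIDR, against 14 and 40 in WT, and Nr2f1 had 0 at ZT10 and 7 at ZT22. In all, 25 of the 32 genes had a listed loop at ZT10 and 25 at ZT22, beside 52.1% and 58.5% of all protein-coding genes. The windows of the 32 genes were longer, with a median of 61.8 kb against 27.2 kb over all genes.

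**Figure D4:**
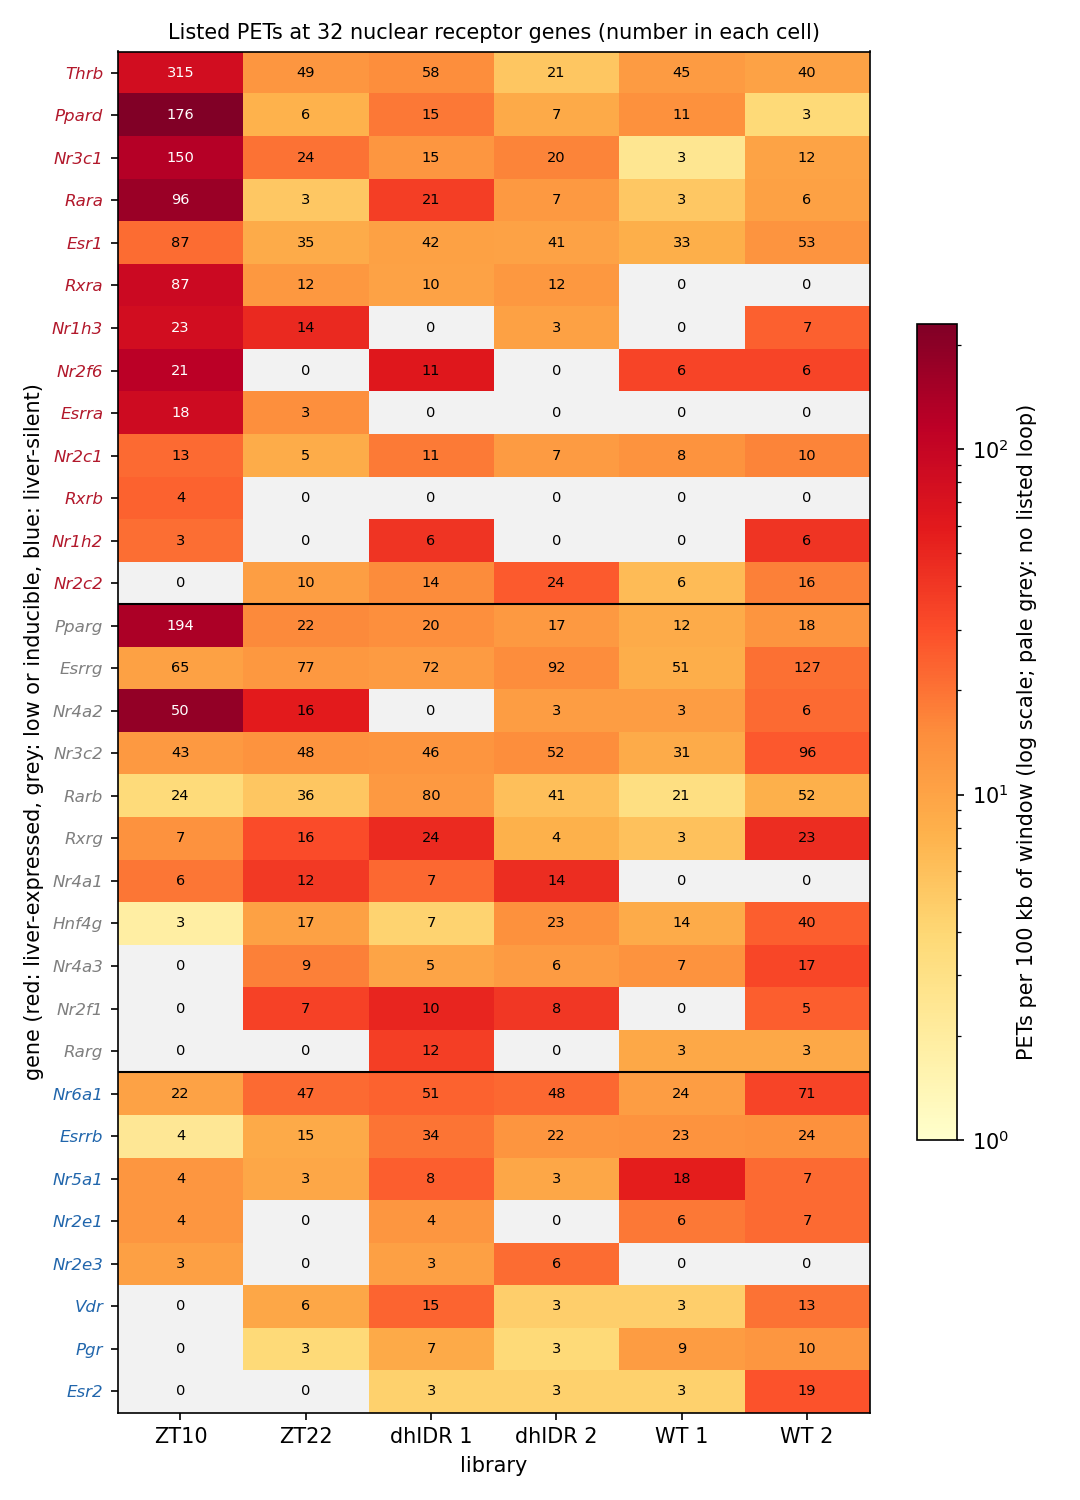
Listed PETs (the number in each cell) and PETs per 100 kb of window (colour, log scale) at the 32 receptor genes in the 6 libraries, with genes grouped by liver class and ordered by ZT10 PETs; pale grey cells have no listed loop. High levels at ZT10 gather in the liver-expressed block, where Ppard reaches 224 PETs per 100 kb, and no liver-silent gene exceeds 12.6 there.

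The time-of-day comparison asked where REV-ERBα loops differ between ZT10, when the protein is abundant, and ZT22, when it is scarce. Shares of each library's listed PETs were compared with 0.5 PETs added to each count, and a gene was called at a 4-fold difference or more with at least 30 PETs over both libraries. Rara and Ppard were called higher at ZT10, with log2 ratios of 3.51 and 3.49, and Nr6a1 was called lower, at -2.35. Of the 32 genes 13 had enough PETs, so 2 were called higher, beside 39.5% of the 3721 genes with enough PETs, and 1 was called lower, beside 16.1%. With 1 library per time there is no test and no replicate check.

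The 10 genes within 4-fold ran from Pparg at a log2 ratio of 1.84, just inside that limit, through Rxra at 1.54, Thrb at 1.40, Nr3c1 at 1.35, Nr4a2 at 0.34 and Esr1 at 0.03 to Nr1h3 at -0.58, Nr3c2 at -1.43, Esrrg at -1.51 and Rarb at -1.85. The median of the 13 was 0.34, against 1.40 over all genes with enough PETs; both describe only genes that passed the minimum, which 1 high library is enough to do. Relative to that median gene, Rara and Ppard stood 2.11 and 2.09 higher, Thrb was at 0.00, and Esr1 was 1.37 lower. With the median gene as the zero, Rarb, Esrrg and Nr3c2 joined Nr6a1 among the genes called lower, and over all genes 43.9% of calls were higher at ZT10 in place of 71.0%. The call at Nr6a1 did not remain when loops were restricted to wide anchors or to the 5 kb round the 5′ end, where it had under 30 PETs. With wide anchors Rxra and Esr1 were called higher, at 3.18 and 3.20, beside 1442 of all 2357 genes with enough PETs. The median of those genes was 2.34. Round the 5′ end Rxra and Thrb were called higher, at 5.74 and 2.74, beside 1264 of 1629 genes. The median there was 3.71, so Thrb lay below it. Pparg was called higher with no flank, at 2.55, beside 1213 of 3025 genes, and Esrra with windows reaching 25 kb, beside 1752 of 6051. Loop span and anchor width moved with the same contrast over the whole library, and their part in these ratios was not tested.

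The nuclear receptor genes outside the 32 were looped more densely at ZT10. Those 16 genes had 2756 PETs at ZT10 and 192 at ZT22, and 9 of the 12 with enough PETs were called higher at ZT10, beside 39.5% of all genes with enough PETs. Their median was 287 PETs per 100 kb at ZT10, against 13.2 over the 32 genes. Nr5a2, a receptor of bile acid and cholesterol genes, led them with 495 PETs at ZT10 and 27 at ZT22, and Rora, an activator at REV-ERB sites, followed with 434 and 57.

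Of 20 coregulator genes of nuclear receptors, 9 had enough PETs, 4 were called higher at ZT10, beside 39.5% of all genes, and 0 lower, beside 16.1%. Tbl1xr1, a subunit of the NCoR complex, had 679 PETs at ZT10 and 34 at ZT22, and Ppargc1b, a coactivator of estrogen-related receptors, had 351 and 3. Of 24 targets and ligand enzymes of the receptors described here, 16 had enough PETs, 10 were called higher and 0 lower, against the same 39.5% and 16.1%. They were led by Dhrs3, a retinal reductase, with 578 PETs at ZT10 and 9 at ZT22, and Abca1, a cholesterol exporter driven by LXR, with 284 and 29, which was within 4-fold.

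The comparison of dhIDR with WT asked whether the hIDR of REV-ERBα changes its loops. No receptor gene passed the test. edgeR's quasi-likelihood test with Benjamini-Hochberg adjustment tested 16 of the 32 genes, and 0 were called in either direction and 0 had an unadjusted p under 0.05, with DESeq2 also at 0 of both. Over all 4608 genes tested, 1 was called (0.0217%), lower in dhIDR, and 124 had an unadjusted p under 0.05.

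The 5 genes with the smallest p all had an adjusted p of 1.00. The log2 difference of dhIDR over WT was 1.14 (SE 0.82) at Nr3c1, which had 8.41 and 12.5 PETs per 100000 listed in dhIDR, against 2.88 and 5.88 in WT. At Rarb it was 0.58 (SE 0.44), with 44.8 and 25.5 in dhIDR, against 20.2 and 25.5 in WT. At Hnf4g it was -0.91 (SE 0.71), with 3.92 and 14.3 in dhIDR, against 13.4 and 19.6 in WT. Each of these 3 differences was smaller than 2 standard errors. The SE was derived from the log2 difference and the F statistic of the test, so it repeats what p says. At Hnf4g the groups overlapped. With 1 library left out in turn, the value ran from 0.69 without the first WT library to 1.90 without the second at Nr3c1, and from 0.13 without the first dhIDR library to 0.92 without the second at Rarb. At Hnf4g it ran from -2.11 without the second dhIDR library, where edgeR's unadjusted p was 0.045 and its adjusted p 1.00, to -0.25 without the first. Nr3c2 gave -0.45 (SE 0.41) and Nr4a3 -1.22 (SE 1.24). Without the first WT library the Nr3c2 value was -0.83, and without the second it was 0.039, on the other side of 0.

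Per 100000 listed PETs, both dhIDR values lay above both WT values at 3 of the 16 tested genes, beside 18.4% of all genes tested. The 3 were Nr3c1, Nr2c2 and Rarb. Both dhIDR values lay below both WT values at 2, Esr1 and Nr4a3, beside 15.1%. The nearest dhIDR and WT values were almost equal at Rarb, 25.52 and 25.49, and at Nr2c2, 7.846 and 7.842. These counts are near the background. Rxra, Nr4a1 and Nr2e3, with PETs in both dhIDR libraries and none in either WT library, were left out by the filter on low counts. They were picked for that pattern after the values were seen, and the share of all genes that show it was not computed. When no filter was applied, 534 of 18946 genes had an unadjusted p under 0.05 by edgeR. Rxra and Nr4a1 were among them, at 0.0092 and 0.011, with an adjusted p of 1.00. Having been picked for that pattern, the 3 genes draw no support from these values. No fold is given for them, because an unlisted gene may hold loops below the listing minimum.

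**Figure D5:**
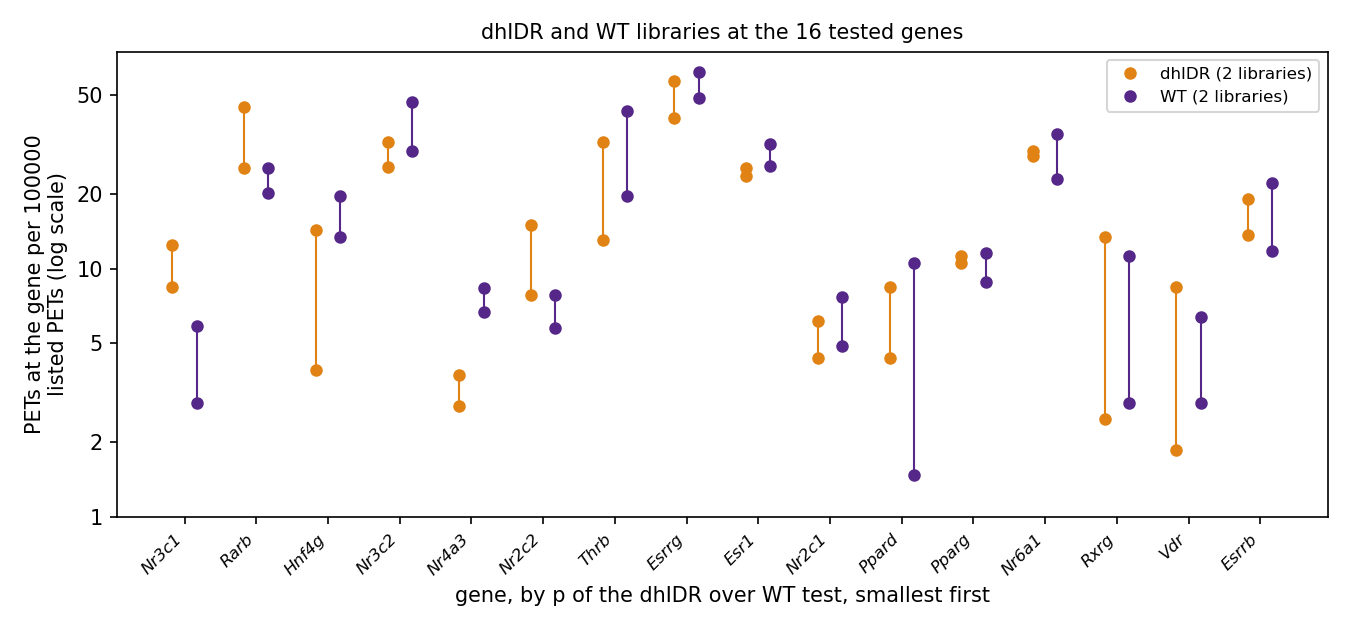
PETs at the gene per 100000 listed PETs (log axis) in the 2 dhIDR libraries (orange, left) and the 2 WT libraries (purple, right) for the 16 tested receptor genes, ordered by p with the smallest first; points are libraries and lines join the 2 of a group. At Nr3c1 and Nr4a3 the groups stand clear of each other, and at most others they overlap.

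Loops at the receptor genes numbered 279 at ZT10, 151 at ZT22, 158 and 131 in dhIDR, and 105 and 201 in WT. At ZT10 they were short and mostly internal: 176 of the 279 had both anchors in 1 gene's window, with a median span of 45.6 kb, and 32, with 230 PETs, touched a listed promoter. At ZT22, 28 of 151 were internal, the median span was 835 kb, and 3 touched a listed promoter. In the AAV libraries the median spans were 385 and 671 kb in dhIDR, against 2680 and 730 kb in WT, and between 1 and 5 loops a library touched a listed promoter. Listed promoters were touched at ZT10 by 26 of the 204 loops of liver-expressed genes, 6 of the 66 of genes of low expression and 0 of the 9 of liver-silent genes. Nr3c1, with 33 of the liver-expressed loops, Hnf4g and Nr5a1 had no listed promoter, so their loops could not be counted as touching one. The share over all ZT10 loops was not computed, and 9 loops are too few to set the classes apart.

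Few loops recurred between libraries. With both anchors overlapping, 7 recurrences were found over all 15 pairs of the 6 libraries, and 5 of them involved ZT10. The share of all listed loops that recur by this rule was not computed. ZT10 had the most loops at these genes, 279, and anchors of median width 1067 bp, against 601 to 626 bp elsewhere. The part of both in these overlaps was not tested. The first dhIDR library shared 4 loops with ZT10: the Esr1 promoter loop (7 PETs there, 12 at ZT10), the loop to the internal Pparg promoter (4 and 16), a Rara promoter loop (5 and 3) and a Nr3c1 loop (3 and 3). The first WT library shared the 52.7-kb loop from Ppard to Def6, with 3 PETs there and 21 at ZT10. No loop at these genes was shared by ZT10 and ZT22, by both dhIDR libraries, or by both WT libraries.

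When loops were matched by pairs of 10-kb bins, 23 of the 279 ZT10 loops (8.24%) were also listed in the first dhIDR library, against 3.29% of all 57865 ZT10 loops. The shares were 2.15% for ZT22, 0.717% for the second dhIDR library, and 1.08% and 1.79% for the WT libraries, against 3.88%, 1.67%, 1.27% and 1.91% of all ZT10 loops. Of the 23, Thrb had 6, Rara and Nr6a1 4 each, and Pparg 3. ZT10 anchors covered 6.85% of the bases of the 32 windows. An anchor inside a window touched one in 18.2% and 16.8% of the loops in dhIDR, against 13.3% and 10.4% in WT, and in 18.4% at ZT22. Any overlap counted, so the share of bases is not the share of loops that would touch one at random places. That share was not computed.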

How the data were processed

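In-situ ChIA-PET loops of 6 anti-HA liver libraries were analysed. The deposited files give, per library, raw counts of PETs joining 2 anchor intervals on 1 chromosome, not normalized and not pooled over replicates, and every listed count was at least 3. Per the submitters' processing notes, reads were placed on mm10. The aligner and loop caller are not given in the sources used here. Groups came from the sample titles.

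Mitochondrial loops were left out. PETs were summed per gene over listed loops with an anchor in the gene body plus 5 kb either side, from RefSeq's GRCm38.p6, whose coordinates are those of mm10. Neighbouring genes can share a loop. Strand and promoters came from RefSeq's promoter table, which held none for Hnf4g, Nr3c1 and Nr5a1. ZT10 over ZT22 is a ratio of shares of listed PETs with 0.5 PETs added, called at 4-fold with at least 30 PETs over both libraries. The dhIDR over WT contrast used edgeR 4.0.16 (glmQLFit and glmQLFTest, TMM factors, filterByExpr, Benjamini-Hochberg at 0.05 over all genes tested). DESeq2 1.42.0 was an alternative. The edgeR step was run on simulated counts with known changes. Recovery was required only at a depth above, and a spread below, those of these libraries. The simulation therefore does not show which changes the test could find here. Poisson and Clopper-Pearson intervals are exact at 95%. Other windows, scales, minimums, loop classes and left-out libraries were tried as alternatives.

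Named values follow a rule: the 10 genes with most ZT10 PETs, each called gene, and the 5 smallest p values for dhIDR over WT in full, the rest by range or in brief, the strongest ZT10 loop of each gene with at least 30 ZT10 PETs, and 2 leading genes of other lists. Loops of Nr1h3, Nr2f6 and Esrra, the printed promoters and the Rxra, Nr4a1 and Nr2e3 contrasts were chosen after their values were seen. The 32 genes, the liver classes and the other lists were chosen with earlier results of these data known. Same-numbered dhIDR and WT libraries did not deviate together (r = 0.01 over tested genes), so replicate numbers were not used as a block in the reported fit.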

Additional observations from a re-analysis of the deposited data

How the results depend on the processing

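Each comparison was recomputed with 1 processing choice changed at a time. Of the 66 values for whole comparisons, 40 stayed within their limits and 26 moved. The genes called higher at ZT10 numbered 2 to 4 throughout. They were 4 when both anchors had to be at least 700 bp wide, beside 1442 of all 2357 genes with enough PETs. Those called lower numbered 4 with windows reaching 25 kb, 4 with the median ratio as the scale, 6 with a minimum of 10 PETs and 10 with no minimum. In that order, 913 of 6051, 959 of 3721, 2507 of 8618 and 6626 of 15906 were called lower over all genes. With wide anchors 0 were, beside 26 of 2357, and within 5 kb of the 5′ end 0 were, beside 3 of 1629. The share of calls higher at ZT10 over all genes ranged from 29.6% with no minimum to 99.8% round the 5′ end. Rara was called higher in each of these settings other than round the 5′ end, where under 30 PETs were left, and Ppard in every one. The ratio of liver-expressed to liver-silent PETs per 100 kb at ZT10 stayed above 1 and moved to 7.24 or 4.70 with the 11 other genes counted as liver-expressed or liver-silent and to 20.2 with wide anchors. The liver-expressed median moved to 21.7 with those 11 genes and 46.5 with windows reaching 25 kb. The liver-silent median moved to 10.3 with those 11 genes, 0 with no flank, 1.17 with wide anchors and 1.17 with loops of at least 4 PETs. Loops shared with ZT10 at the same gene numbered 38 by 10-kb bins and 2 among loops of at least 4 PETs, and ZT10 loops numbered 133 at that minimum. For dhIDR against WT, 0 of the 32 genes passed under any alternative. Over all genes, 3 passed with no filter on low counts, 3 with windows reaching 25 kb and 0 with loops of at most 2 Mb, and 2 to 6 without 1 library, the highest without the second WT library (3 higher and 3 lower in dhIDR). The log2 difference at Nr3c2 ranged from -0.83 to 0.039 when 1 library was left out and changed sign only without the second WT library. With the replicate number as a block, 1 gene passed over all genes and 0 of the 32, as in the fit without it. Listed PETs start at 3 per loop, so values near 0 are limited by listing as well as by depth, and 1 knock-in library per time and 2 AAV libraries per construct limit every contrast.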
